A study of Mus musculus with 12 samples.

Results

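The mouse CC chemokine ligands Ccl2, Ccl3, Ccl4, Ccl5, Ccl6, Ccl7, Ccl9, Ccl17, Ccl22 and Ccl24 were examined in bone marrow-derived macrophages (BMDM) recovered from 3D collagen-hyaluronic acid hydrogels. They were chosen by name, and all 10 were present among the 14098 genes of the expression table. BMDM of C57Bl/6 mice of both sexes, 8 to 10 weeks old and either WT or Camkk2-/- (labelled KO), were grown in L929-conditioned medium and embedded in hydrogels. In the soft group the gel was left soft, in the soft+IL-4 group IL-4 was given in the soft gel, and in the stiff group the gel was crosslinked by UV light with a photoinitiator 24 h after embedding. The stiff gel therefore differed from the soft gel also in its exposure to light and photoinitiator and, per the study's methods, in its collagen content, and these cannot be told apart from stiffness. Cells were cultured for 48 h and released with collagenase IV, and each of the 6 groups gave 2 libraries, described as biological replicates. The number of animals behind a library is not given in the sources used here.

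CC chemokines are small secreted proteins that steer leukocytes through G protein-coupled receptors of the CCR family. Macrophages are a major source of them, and the set they secrete changes with their activation state. Cells exposed to IL-4, which signals through STAT6, are known for ligands of CCR4 and CCR3 that attract T helper 2 cells, regulatory T cells and eosinophils. Cells exposed to microbial products are known instead for ligands that attract monocytes and effector T cells.

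Values are TPM, in which reads are divided by transcript length and the sum over genes is set to 1000000 in every library, so levels of different genes can be compared per length. TPM keeps no read totals, and the depth of each library is unknown. Camkk2 went against the label in 3 of the 12 libraries. The library labelled WT soft 2 held 11.7 TPM, with 46.6 TPM in KO soft 1 and at 37.7 TPM in KO stiff 1, against 23.3 to 44.2 TPM in the other libraries labelled WT and 8.54 to 11.5 TPM in the other libraries labelled KO. Directions rest on the labels, and the results of the comparisons that use these libraries are also given without the 3 of them. The library labelled WT stiff 1 also stood apart: its root mean square log2 difference to the nearest of the other libraries was 0.688, against 0.188 to 0.388 for each of the other 11. Each of the 8 macrophage markers listed reached 1 TPM in at least 1 library. Their summed level was 23570 to 57980 TPM, of which Lyz2 made up 80.8% to 89.1%. Of the 7 fibroblast or stroma markers in the table, 7 were below 1 TPM in every library.

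The 10 ligand genes fall into 3 chromosomal clusters and 1 isolated gene in GENCODE vM21 on GRCm38 (mm10). Ccl22 (chr8:94745590-94751699) and Ccl17 (chr8:94810453-94812036) lie on the plus strand within 66.4 kb of chromosome 8. Ccl2 (chr11:82035571-82037453) and Ccl7 (chr11:82045712-82047525) lie within 12 kb of chromosome 11, followed on the same strand by Ccl11, Ccl12 and Ccl8. Ccl5 (chr11:83525778-83530518), Ccl9 (chr11:83572919-83578636), Ccl6 (chr11:83587882-83593087), Ccl3 (chr11:83647844-83649355) and Ccl4 (chr11:83662584-83664683) share 139 kb further along chromosome 11. Ccl24 (chr5:135569937-135573049) is the member on chromosome 5.

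Upstream sequences from RefSeq (GRCm38.p6) matched 5 of the 10 genes, namely Ccl3, Ccl6, Ccl9, Ccl17 and Ccl22. The sequences of the CCR4 ligand pair are shown first, because both genes were among those with the widest range over the libraries and they are neighbours on chromosome 8. Each is 5′ to 3′ on the plus strand, Ccl17 from chr8:94810203-94810452 and Ccl22 from chr8:94745434-94745589, which ends at the GENCODE start of the gene. Capitals mark matches to the motifs searched.
Ccl17: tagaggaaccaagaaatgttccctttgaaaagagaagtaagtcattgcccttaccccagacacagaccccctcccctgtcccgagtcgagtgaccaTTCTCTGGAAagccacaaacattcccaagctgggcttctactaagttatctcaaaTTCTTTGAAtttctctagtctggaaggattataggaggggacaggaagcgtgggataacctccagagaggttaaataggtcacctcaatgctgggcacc
Ccl22: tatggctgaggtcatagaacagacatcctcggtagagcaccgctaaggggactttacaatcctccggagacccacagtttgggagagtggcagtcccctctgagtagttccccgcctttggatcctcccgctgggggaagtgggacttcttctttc
The motifs were TTCNNNGAA and TTCNNNNGAA (letters that STAT factors are known to bind), the NF-kB motif by name, TGANTCA (the AP-1 motif) and TATAAA, each on both strands of the 250 bases before the RefSeq start. Ccl17 held TTCNNNGAA at positions -99 to -91 and TTCNNNNGAA at -154 to -145 from its start, and these patterns occurred in 7.02% and 5.85% of 32851 upstream windows of the same length. No match was found in the Ccl22 window. These matches describe the letters of the windows and not sites of binding.

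The neighbours Ccl9 and Ccl6 are shown for contrast, since they were the most abundant and least variable of the ligands. Both are given 5′ to 3′ on the minus strand, Ccl9 from chr11:83578637-83578886 and Ccl6 from chr11:83593088-83593337, with motif matches in capitals.
Ccl9: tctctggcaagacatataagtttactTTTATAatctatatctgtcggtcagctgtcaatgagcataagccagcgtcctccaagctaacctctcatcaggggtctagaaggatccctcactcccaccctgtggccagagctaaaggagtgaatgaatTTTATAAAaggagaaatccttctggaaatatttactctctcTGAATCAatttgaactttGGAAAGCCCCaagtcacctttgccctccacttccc
Ccl6: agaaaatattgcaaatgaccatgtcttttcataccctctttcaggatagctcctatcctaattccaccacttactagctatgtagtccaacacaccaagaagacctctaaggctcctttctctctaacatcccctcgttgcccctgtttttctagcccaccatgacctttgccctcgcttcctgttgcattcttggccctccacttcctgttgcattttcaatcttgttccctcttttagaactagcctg
Ccl9 held an NF-kB match at -35 to -26 (7.25% of all windows), TGANTCA at -53 to -47 (6.75%) and TATAAA on one or the other strand (12.4%), of which the matches at -94 to -89 and -92 to -87 overlap. The Ccl6 window held none of the 5 motifs, and the longest run of bases that the Ccl9 and Ccl6 windows shared was 13. The Ccl3 window also held no match.

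The ligands covered a wide range of levels. Ccl6 had the highest median over the 12 libraries (1287 TPM), followed by Ccl9 (956.6 TPM) and Ccl5 (180.2 TPM). Ccl3, Ccl4, Ccl22, Ccl24, Ccl2, Ccl7 and Ccl17 followed in that order, from 58.69 TPM for Ccl3 down to 21.37 TPM for Ccl17. The order by range was nearly the reverse: Ccl6 varied 1.64-fold and Ccl9 1.73-fold between the lowest and highest library, against 28.2-fold for Ccl24, 21.3-fold for Ccl7 and 16.8-fold for Ccl22, while Ccl17 reached 37.6 TPM and was listed at 0 in 1 library.

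**Figure D1:**
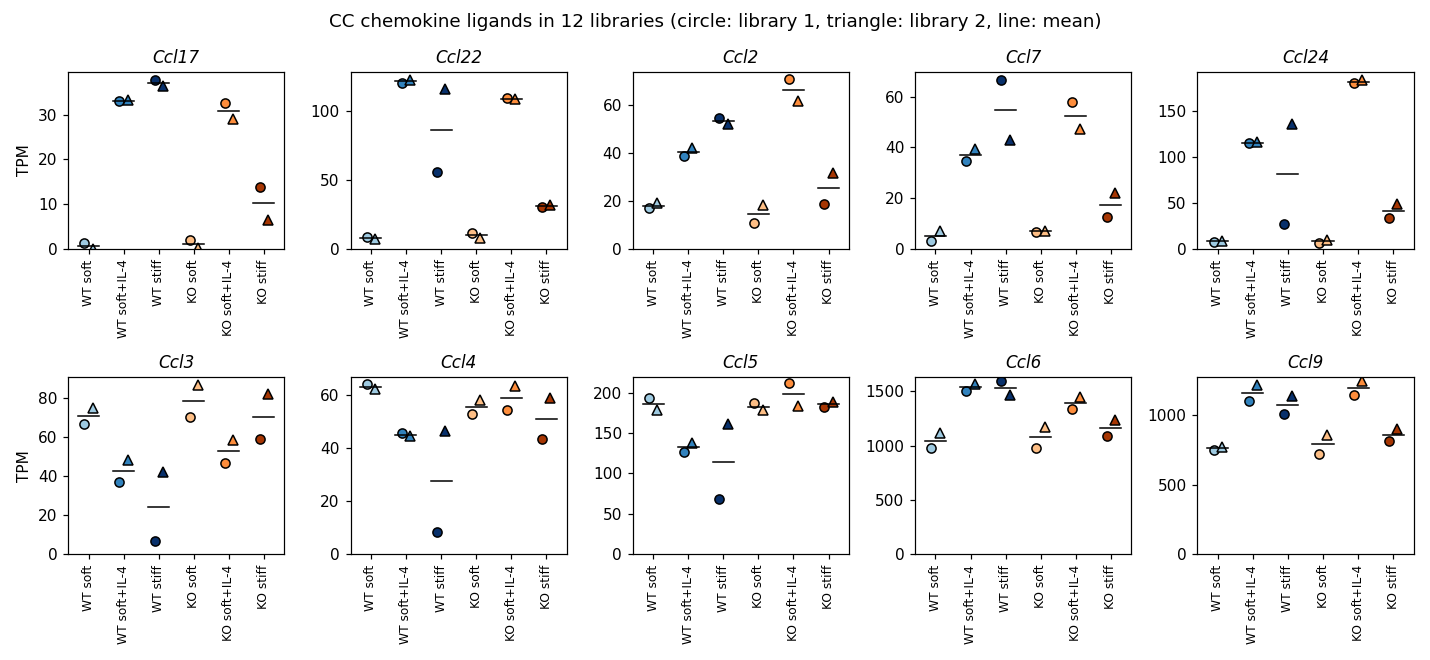
TPM (y axis, linear, each panel from 0) of each of the 10 CC chemokine ligands in the 6 groups (x axis), with a circle for library 1, a triangle for library 2 and a line at their mean. Ccl17, Ccl22, Ccl2, Ccl7 and Ccl24 sit lowest in both soft groups and between soft and soft+IL-4 in KO stiff, while Ccl3, Ccl4 and Ccl5 are lowest in WT stiff 1.

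Summed over the 10 genes, the ligands made up 0.205% to 0.240% of all TPM in the 4 soft libraries. The share was 0.316% to 0.343% in the 4 soft+IL-4 libraries, 0.294% and 0.324% in WT stiff, and 0.230% and 0.261% in KO stiff. Ccl6 and Ccl9 together contributed 76.5% to 88.9% of the sum in every library, so the total mostly follows these 2 genes. The sum of Ccl17, Ccl22, Ccl2, Ccl7 and Ccl24 moved more: it was 38.0 to 43.9 TPM in the soft libraries, 341.6 to 450.2 TPM in the soft+IL-4 libraries, 241.8 and 382.7 TPM in WT stiff and 109 and 141.4 TPM in KO stiff.

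**Figure D2:**
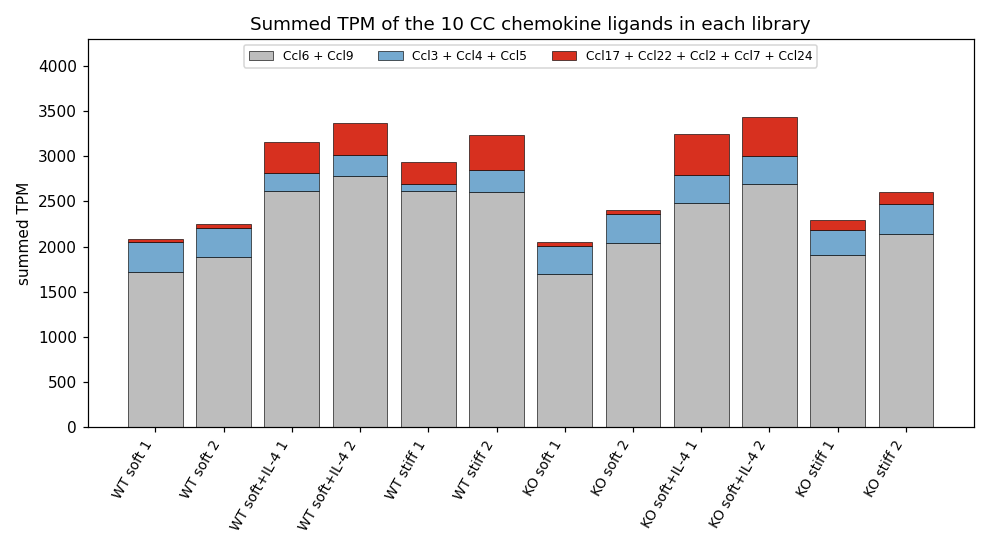
Summed TPM of the 10 ligands (y axis, linear from 0) in each of the 12 libraries (x axis), stacked as Ccl6 + Ccl9 (grey), Ccl3 + Ccl4 + Ccl5 (blue) and Ccl17 + Ccl22 + Ccl2 + Ccl7 + Ccl24 (red). The red part is 38.0 to 43.9 TPM in the soft libraries and 109 and 141.4 TPM in KO stiff, against 241.8 and 382.7 TPM in WT stiff.

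Ccl17 and Ccl22 encode the ligands of CCR4, the receptor of T helper 2 and regulatory T cells. Ccl17 was listed at 1.40 and 0 TPM in WT soft 1 and 2, at 32.9 and 33.3 TPM in WT soft+IL-4, against 37.6 and 36.3 TPM in WT stiff. In the libraries labelled KO it was at 2.04 and 0.219 TPM in soft, 32.6 and 28.9 TPM in soft+IL-4 and 13.8 and 6.53 TPM in stiff. The 6 libraries of WT soft+IL-4, WT stiff and KO soft+IL-4 thus lay within 28.9 to 37.6 TPM, and both KO stiff libraries lay below these and above all 4 soft libraries. Ccl22 was at 8.77 and 7.28 TPM in WT soft, 120 and 122 TPM in WT soft+IL-4, with 55.7 and 116 TPM in WT stiff. In KO it was at 11.7 and 8.20 TPM in soft, 109 and 108 TPM in soft+IL-4 and 30.5 and 32.1 TPM in stiff. The order of the groups was the same as for Ccl17 from the fourth rank down, with KO stiff separated from its neighbours on both sides and the 2 soft groups overlapping. WT stiff 1 held much less Ccl22 than WT stiff 2 but as much Ccl17, so the log2 ratio of Ccl22 to Ccl17 was 0.55 in WT stiff 1 and 1.65 in WT stiff 2.

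Ccl2 and Ccl7 encode monocyte chemoattractants that act on CCR2. Ccl2 was at 17.0 and 19.3 TPM in WT soft, 38.8 and 42.3 TPM in WT soft+IL-4, against 54.8 and 52.2 TPM in WT stiff. In KO it was at 10.9 and 18.4 TPM in soft, 71.1 and 61.9 TPM in soft+IL-4 and 18.8 and 31.9 TPM in stiff. KO soft+IL-4 was the highest group, with no overlap with WT stiff below it, and KO stiff overlapped WT soft. Ccl7 was at 3.13 and 6.95 TPM in WT soft, 34.6 and 39.3 TPM in WT soft+IL-4, with 66.5 and 43.0 TPM in WT stiff. In KO it was at 6.80 and 6.98 TPM in soft, 57.8 and 47.3 TPM in soft+IL-4 and 12.8 and 21.9 TPM in stiff. WT stiff and KO soft+IL-4 overlapped at the top of the order, and KO stiff lay alone between WT soft+IL-4 and the soft groups. The Ccl2 to Ccl7 ratio of levels was 1.61 to 5.43 in the soft libraries and 0.824 to 1.48 in the other 8.

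Ccl24 encodes a ligand of CCR3 that attracts eosinophils. It was at 7.94 and 8.92 TPM in WT soft, 115 and 116 TPM in WT soft+IL-4, against 27.1 and 135 TPM in WT stiff. In KO it was at 6.50 and 10.0 TPM in soft, 180 and 183 TPM in soft+IL-4 and 33.2 and 48.9 TPM in stiff. KO soft+IL-4 was above every other library, and the range of WT stiff enclosed both KO stiff and WT soft+IL-4.

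Ccl3, Ccl4 and Ccl5 encode inflammatory chemokines that attract monocytes and effector T cells, and Ccl3 and Ccl5 act on CCR1. Ccl3 was at 66.9 and 75.0 TPM in WT soft, 36.8 and 48.0 TPM in WT soft+IL-4, with 6.50 and 42.2 TPM in WT stiff. In KO it was at 70.1 and 86.6 TPM in soft, 46.9 and 58.6 TPM in soft+IL-4 and 58.7 and 81.8 TPM in stiff. In both genotypes Ccl3 was lower in each soft+IL-4 library than in each soft library, and in WT stiff 1 it was far below every other library. Ccl4 was at 63.8 and 62.2 TPM in WT soft, 45.6 and 44.4 TPM in WT soft+IL-4, 8.37 and 46.4 TPM in WT stiff, and the KO libraries held 52.6 and 57.9 TPM in soft, 54.0 and 63.1 TPM with IL-4 and 43.2 and 58.7 TPM in stiff. Ccl5 was at 194 and 178 TPM in WT soft, 127 and 138 TPM in WT soft+IL-4, against 68.3 and 161 TPM in WT stiff, and between 178 and 212 TPM in the 6 libraries labelled KO. The lowest value of all 3 genes was that of WT stiff 1.

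Ccl6 and Ccl9 encode ligands of CCR1 that macrophages of mice make without stimulation. Ccl6 was at 974 and 1115 TPM in WT soft, 1507 and 1568 TPM in WT soft+IL-4, 1600 and 1465 TPM in WT stiff, and the KO libraries held 976 and 1176 TPM in soft, 1339 and 1449 TPM with IL-4 and 1087 and 1235 TPM in stiff. Ccl9 was at 748 and 772 TPM in WT soft, 1103 and 1218 TPM in WT soft+IL-4, 1010 and 1139 TPM in WT stiff, and the KO libraries held 723 and 858 TPM in soft, 1141 and 1247 TPM with IL-4 and 815 and 903 TPM in stiff. For both genes the IL-4 libraries of a genotype lay above its soft libraries, and KO stiff overlapped KO soft. Libraries of soft+IL-4 and soft did not overlap, in either direction, for 61.3% of all genes in WT and 60.4% in KO.

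Differences were tested with limma on log2(TPM + 1) over the 11194 genes that reached 1 TPM in 2 or more libraries, which include all 10 ligands, in 1 model of the 6 groups. A gene was called where the Benjamini-Hochberg adjusted p was under 0.05 and the absolute log2 fold change at least 1. Log2 fold changes are given with the SE and are on the log2(TPM + 1) scale, which understates the change of low genes such as Ccl17. With 2 libraries in each group, the spread of a gene between libraries was estimated over all 6 groups together. An SE is therefore not that of the groups compared alone. For Ccl24 it was 0.56 in every comparison of 2 groups, also in those without WT stiff. The WT stiff libraries, at 27.1 and 135 TPM of Ccl24, are part of that spread.

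The first question was how IL-4 and a stiff matrix each changed the ligands of WT cells. With IL-4, 5 of the 10 ligands rose and 0 fell, where 1.59% of the genes tested rose. Ccl17 rose by 4.46 ± 0.49 and Ccl22 by 3.77 ± 0.28 (log2, limma with Benjamini-Hochberg adjusted p = 0.000662 and 8.42e-05). Ccl24 rose by 3.62 ± 0.56 (limma adjusted p = 0.0039) and Ccl7 by 2.73 ± 0.33 (0.00115). Ccl2 rose least, by 1.12 ± 0.26 (limma adjusted p = 0.0237), and it was not called without any 1 of the 4 libraries compared (adjusted p = 0.0898 to 0.131). The adjusted p of Ccl6 and Ccl9 was also under the threshold (0.0198 and 0.0104, limma), with log2 differences of 0.56 and 0.61 that were below the fold required. Ccl3, Ccl4 and Ccl5 had log2 differences of -0.74, -0.48 and -0.49, with 95% intervals that included 0. The median over the 10 ligands was 0.87, against -0.05 over all genes tested. Without the 3 libraries whose Camkk2 goes against the label, 4 of the 5 were still called, and Ccl24 was at 3.70 with an adjusted p of 0.123 (limma).

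In the stiff matrix, 5 of the 10 ligands rose in WT cells and 0 fell, where 1.73% of the genes tested rose. They were Ccl17 (4.61 ± 0.49, log2, limma with Benjamini-Hochberg adjusted p = 0.000469), Ccl7 (3.25 ± 0.33, 0.000387), Ccl22 (3.18 ± 0.28, 0.000176), Ccl24 (2.72 ± 0.56, 0.0152) and Ccl2 (1.51 ± 0.26, 0.0061). Ccl6 and Ccl9 differed by 0.55 and 0.50 with limma adjusted p of 0.0211 and 0.0259, again below the fold required. Ccl3 and Ccl4 had log2 differences of -2.00 and -1.60 that were not called (limma adjusted p = 0.0744 and 0.112), and these rest on WT stiff 1: without that library they were -0.73 and -0.43. Ccl5 had a difference of -0.82, and of -0.20 without WT stiff 1. Without WT stiff 2, in turn, Ccl3, Ccl4 and Ccl5 were called lower and 8 of the 10 ligands were called, as were 1108 of all genes. The 5 rises were all called without WT stiff 1, but Ccl24 was not called without either WT soft library (limma adjusted p = 0.0937 and 0.0808) and Ccl2 not without WT soft 1 (0.0519). Ccl24 was also not called without the 3 libraries whose Camkk2 goes against the label (2.79, limma adjusted p = 0.201), and with only the groups compared in the model 0 of the 10 were called.

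The 2 comparisons share the WT soft libraries, so stiff and soft+IL-4 were also compared directly. In WT cells 0 of the 10 ligands were called between them, as were 0% of all genes, with 0 ligands and 557 genes at an unadjusted p under 0.05. The 95% intervals of the log2 difference were -0.95 to 1.26 for Ccl17, -0.23 to 1.27 for Ccl7, -0.19 to 0.97 for Ccl2, -1.22 to 0.05 for Ccl22 and -2.18 to 0.36 for Ccl24. Differences up to these bounds remain compatible with the data. Without WT stiff 2 the result differed, with Ccl3, Ccl4, Ccl22 and Ccl24 called lower in stiff among 956 called genes, and Ccl24 was at -2.05 (limma adjusted p = 0.000446) there and at 0.23 without WT stiff 1.

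**Figure D3:**
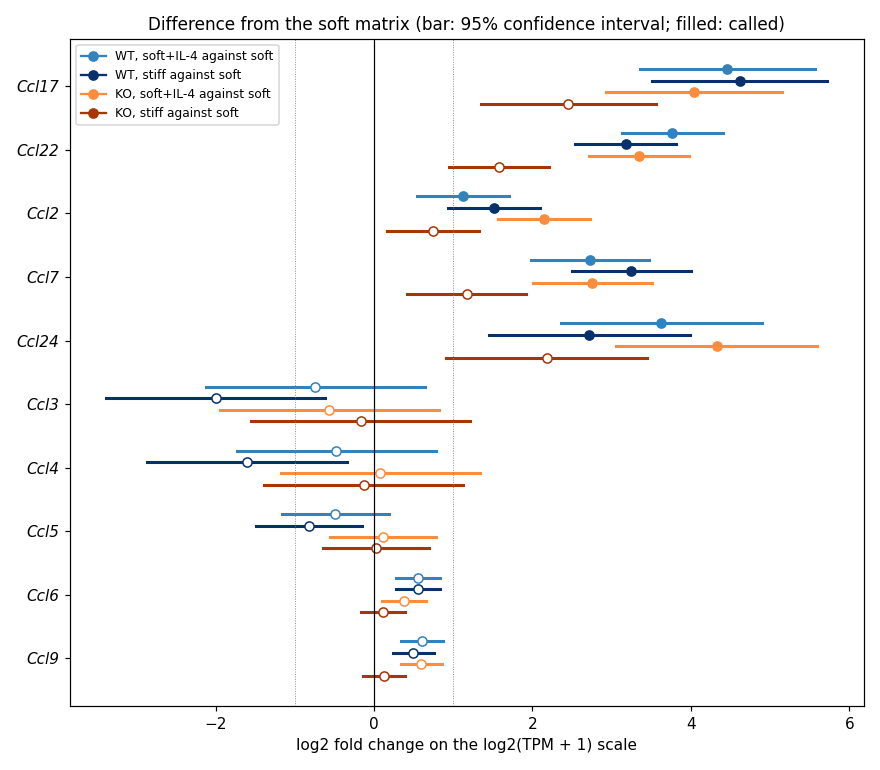
Log2 fold change on the log2(TPM + 1) scale (x axis) of each ligand (y axis) in 4 comparisons with the soft matrix of the same genotype, with 95% confidence intervals as bars, filled circles for called genes and dotted lines at a log2 fold change of 1 in either direction. Ccl17, Ccl22, Ccl2, Ccl7 and Ccl24 are filled in both WT comparisons and in KO soft+IL-4, and open for KO stiff, where their intervals still lie above 0.

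The same responses were then measured in cells labelled KO. With IL-4, 5 of the 10 ligands rose and 0 fell in KO, where 1.56% of the genes tested rose. Ccl24 rose by 4.33 ± 0.56, Ccl17 by 4.04 ± 0.49 and Ccl22 by 3.34 ± 0.28 (log2, limma with Benjamini-Hochberg adjusted p = 0.00159, 0.00108 and 0.000134). Ccl7 rose by 2.75 ± 0.33 and Ccl2 by 2.15 ± 0.26 (limma adjusted p = 0.00104 and 0.000998). All 5 were called without each of the 4 libraries in turn. When the 3 libraries whose Camkk2 goes against the label were left out, 4 were called, and Ccl24 was at 4.05 with a limma adjusted p of 0.089. The difference between genotypes in the IL-4 response was called for 0 of the 10 ligands and for 0% of all genes, with 1 ligand, Ccl2, and 165 genes at an unadjusted p under 0.05 by limma. For Ccl2 it was 1.02 (95% interval 0.20 to 1.84), the response being larger in KO, and 0.58 (0.08 to 1.09) without the 3 libraries whose Camkk2 goes against the label, where 0 ligands were called.

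In the stiff matrix 0 of the 10 ligands were called in KO, where 0.0447% of the genes tested were called, and 5 ligands and 295 genes had an unadjusted p under 0.05 by limma. The 5 ligands were those that rose in WT. Their log2 differences were 2.46 for Ccl17 (95% interval 1.35 to 3.56), 2.18 for Ccl24 (0.91 to 3.45), 1.58 for Ccl22 (0.94 to 2.21), 1.17 for Ccl7 (0.42 to 1.92) and 0.75 for Ccl2 (0.17 to 1.33). Both KO stiff libraries were above both KO soft libraries for all 5. The libraries of these groups did not overlap, in either direction, for 32.3% of all genes. The smallest limma adjusted p was 0.175, for Ccl22. Without the 3 libraries whose Camkk2 goes against the label the 5 differences were 0.76 to 2.63, and 0 were called. Ccl3, Ccl4, Ccl5, Ccl6 and Ccl9 overlapped between KO stiff and KO soft.

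Averaged over both genotypes, the 5 ligands were called higher in both comparisons, where 1.87% of all genes were called higher with IL-4 and 0.75% in the stiff matrix. The mean rise with IL-4 was 4.25 for Ccl17, 3.98 for Ccl24, 3.55 for Ccl22, 2.74 for Ccl7 and 1.63 for Ccl2 (log2, limma with Benjamini-Hochberg adjusted p = 4.45e-05, 0.000139, 4.41e-06, 6.05e-05 and 0.000259). In the stiff matrix it was 3.53 for Ccl17, 2.45 for Ccl24, 2.38 for Ccl22, 2.21 for Ccl7 and 1.13 for Ccl2 (limma adjusted p = 0.000466, 0.00683, 0.000195, 0.00074 and 0.0066). The 5 were called with IL-4 also without the 3 libraries whose Camkk2 goes against the label. In the stiff matrix 4 were then called, and Ccl24 was at 2.48 with a limma adjusted p of 0.265. Ccl2 fell below the fold required without KO soft 1 (0.95) or KO stiff 2 (0.95).

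The next question was whether the libraries labelled KO differed from those labelled WT in the same matrix. In the soft matrix 0 of the 10 ligands and 0% of all genes were called, with 0 ligands and 130 genes at an unadjusted p under 0.05. Camkk2 goes against the label in 2 of these 4 libraries, and without the 3 such libraries 1 was left in each group, 0 ligands were called and 2 had an unadjusted p under 0.05 by limma, namely Ccl17 at -0.98 (from 0.31) and Ccl7 at 0.95 (from 0.46). With IL-4, where Camkk2 follows the labels in all 4 libraries, 0 ligands and 0% of all genes were called, with 1 ligand and 233 genes at an unadjusted p under 0.05 by limma. That ligand was Ccl2, whose mean was 164% of the WT mean (log2 difference 0.70, 95% interval 0.12 to 1.28). Ccl2 and Ccl7 were higher in both KO libraries than in both WT libraries with IL-4 and lower in the stiff matrix, and 6.41% of all genes changed sides in this way in either direction. In the stiff matrix 3 of the 10 ligands were lower in KO and 0 higher, where 0.616% of the genes tested were lower. Ccl7 was lower by a log2 fold change of -1.62 ± 0.33, Ccl22 by -1.33 ± 0.28 and Ccl2 by -1.09 ± 0.26 (limma with Benjamini-Hochberg adjusted p = 0.0255, 0.0286 and 0.044). Their KO means were 31.7%, 36.5% and 47.4% of the WT means. Ccl17 was at 27.5% of the WT mean with a log2 difference of -1.85 that was not called (limma adjusted p = 0.0693).

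The 3 differences depended on the libraries. Without KO stiff 1, whose Camkk2 goes against the label, 0 of the 10 ligands were called, with Ccl7 at -1.25, Ccl22 at -1.30 and Ccl2 at -0.73 (limma adjusted p = 0.188, 0.17 and 0.267). Without all 3 such libraries only Ccl17 was called (-2.33, limma with Benjamini-Hochberg adjusted p = 0.0202). Without WT stiff 1, Ccl2 and Ccl7 were not called (-1.06 and -1.31, limma adjusted p = 0.0859 and 0.0717), while Ccl22 (-1.86, 0.000458) and Ccl24 (-1.72, 0.00354) were. Without KO stiff 2, Ccl22 was not called (-1.37, limma adjusted p = 0.139), and without WT stiff 2 it was below the fold required (-0.81). With only the 2 groups in the model 0 were called. The direction was the same for Ccl2, Ccl7, Ccl17 and Ccl22 in each of these fits, while Ccl24 was at -0.59 with all libraries and at 0.55 without WT stiff 2.

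Ccl3, Ccl4 and Ccl5 had higher means in KO stiff than in WT stiff, with log2 differences of 1.97, 1.28 and 0.82 that were not called (limma adjusted p = 0.118, 0.263 and 0.184). They were 0.70, 0.12 and 0.20 without WT stiff 1, the library in which these genes were lowest. Without WT stiff 2 they were 3.23, 2.45 and 1.43 and all 3 were called higher in KO (limma adjusted p = 2.05e-05, 1.55e-05 and 1.93e-05), so which WT stiff library was present decided these calls. Ccl6 and Ccl9 had differences of -0.40 and -0.32 (limma adjusted p = 0.112 and 0.177).

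**Figure D4:**
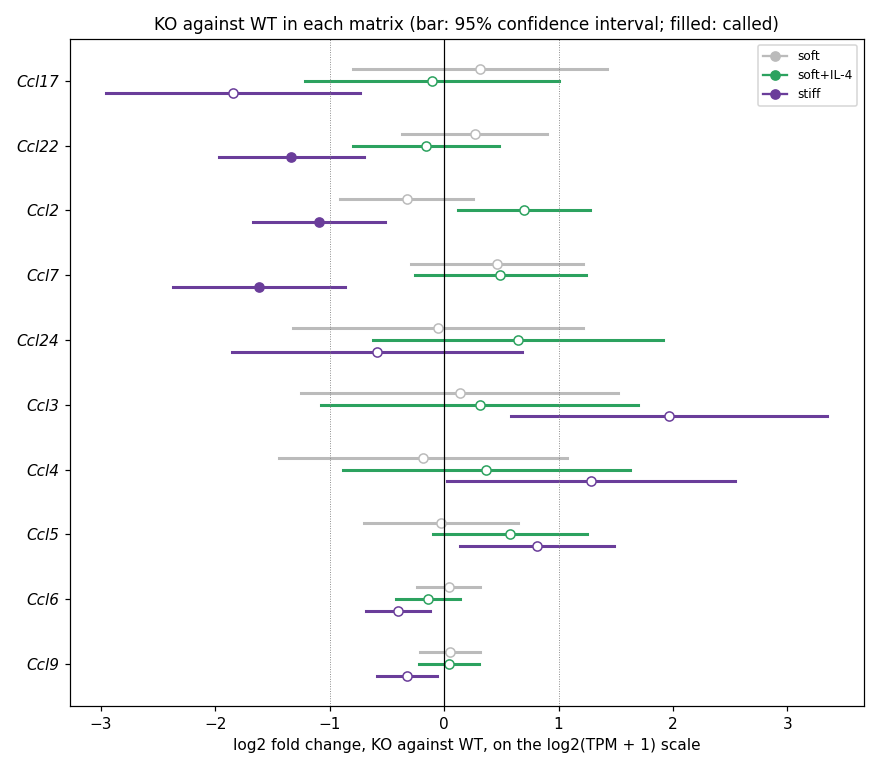
Log2 fold change of KO against WT on the log2(TPM + 1) scale (x axis) of each ligand (y axis) in soft (grey), soft+IL-4 (green) and stiff (purple), with 95% confidence intervals as bars and filled circles for called genes. The purple circles of Ccl22, Ccl2 and Ccl7 are filled and lie at -1.33, -1.09 and -1.62, and the grey and green ones of all 10 ligands are open.

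A difference between genotypes in the stiff response itself was tested as an interaction. It was called for 0 of the 10 ligands and for 0.67% of all genes. An unadjusted p under 0.05 by limma was found for 1219 genes, among them Ccl6, Ccl7, Ccl9, Ccl17 and Ccl22. The interaction was -2.16 for Ccl17 (95% interval -3.73 to -0.59), -2.08 for Ccl7 (-3.14 to -1.02), -1.60 for Ccl22 (-2.50 to -0.70), -0.77 for Ccl2 (-1.59 to 0.05) and -0.53 for Ccl24 (-2.33 to 1.26), with limma adjusted p of 0.0987 to 0.871. Ccl6 and Ccl9 were at -0.44 and -0.37, and Ccl3, Ccl4 and Ccl5 had positive values of 1.83, 1.47 and 0.84 with intervals that included 0. When the 3 libraries whose Camkk2 goes against the label were left out, Ccl7 was at -2.20, Ccl17 at -1.35 and Ccl22 at -1.21 (limma adjusted p = 0.678, 0.544 and 0.998), and 0 ligands were called. Ccl22 and Ccl24 were called without WT stiff 1 (-2.12 and -1.67, limma adjusted p = 0.00262 and 0.0249), and 5 ligands without WT stiff 2. The 5 were Ccl7 and Ccl22 (-2.39 and -1.08) and, in the opposite direction, Ccl3, Ccl4 and Ccl5 (3.09, 2.64 and 1.45). Both fits leave 1 library in WT stiff and take the difference between the WT stiff libraries out of the spread. Ccl22 was not called with all libraries (limma adjusted p = 0.13), nor where a library of another group was left out. For Ccl3, Ccl4, Ccl5, Ccl7 and Ccl24 the call turned on which of WT stiff 1 and WT stiff 2 was present. Of all genes, 152 were called without the former library and 894 without the latter. Without WT stiff 2, Ccl24 was at 0.60. A smaller stiff response in KO was measured for Ccl7, Ccl17 and Ccl22 but did not pass the adjustment.

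Within KO, stiff was also compared directly with soft+IL-4. 3 of the 10 ligands were lower in KO stiff and 0 higher, where 0.491% of the genes tested were lower. Ccl22 was at -1.76 ± 0.28, Ccl7 at -1.58 ± 0.33 and Ccl2 at -1.40 ± 0.26 (log2, limma with Benjamini-Hochberg adjusted p = 0.00946, 0.0306 and 0.0168). Ccl24 was at -2.14 and Ccl17 at -1.59, not called (limma adjusted p = 0.0723 and 0.125), and both libraries of KO stiff were below both of KO soft+IL-4 for all 5. These groups did not overlap, in either direction, for 57.6% of all genes. KO stiff means were 22.6% (Ccl24) to 38.2% (Ccl2) of KO soft+IL-4 means for these 5, whereas WT stiff means were 70.5% (Ccl24) to 148% (Ccl7) of WT soft+IL-4 means. For Ccl24 this rests on WT stiff 2: WT stiff 1 was at 23.6% and WT stiff 2 at 117% of the WT soft+IL-4 mean. When 1 library was left out, 0 or 1 ligands were called: Ccl7 and Ccl22 were not called without any 1 of the 4 libraries (limma adjusted p = 0.0544 to 0.238 and 0.0697 to 0.0889), and Ccl2 was called only without KO stiff 2. Without the 3 libraries whose Camkk2 goes against the label, Ccl17 was called (-2.07, limma adjusted p = 0.0205) and the others were not.

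The difference between genotypes in stiff against soft+IL-4, a comparison added after the data were seen, was called for 0 of the 10 ligands and for 0.724% of all genes, with 4 ligands and 1199 genes at an unadjusted p under 0.05 by limma. It was -2.11 for Ccl7 and -1.79 for Ccl2 (limma with Benjamini-Hochberg adjusted p = 0.0846 and 0.0616), and both were called without WT stiff 2 (-2.42 and -1.83, limma adjusted p = 0.0102 and 0.0175), as were Ccl3 and Ccl4 in the opposite direction (2.92 and 2.08, limma adjusted p = 0.000319 for each). When the 3 libraries whose Camkk2 goes against the label were left out, 0 ligands were called. Ccl22 and Ccl24, at -1.18 and -1.24, were called without WT stiff 1 (-1.70 and -2.37, limma adjusted p = 0.00447 and 0.00445).

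Of 14 other CC ligands listed, 8 were in the table and 5 were tested. Ccl8 lies in the same stretch of chromosome 11 as Ccl2 and Ccl7. It rose by 3.75 with IL-4 and by 3.86 in the stiff matrix in WT (log2, limma with Benjamini-Hochberg adjusted p = 0.00649 and 0.00558). With IL-4 in KO the rise was 3.75 (limma adjusted p = 0.0064). It was at 0.708 and 6.57 TPM in WT soft, 50.4 and 44.7 TPM in WT soft+IL-4, 47.8 and 54.8 TPM in WT stiff, and in KO at 2.41 and 9.71, 78.2 and 82.6, and 16.9 and 24.9 TPM in soft, soft+IL-4 and stiff. KO stiff thus lay between KO soft and KO soft+IL-4, as for Ccl7. Without the 3 libraries whose Camkk2 goes against the label these rises were 4.83, 4.93 and 2.93. Ccl8 was then higher in KO soft than in WT soft by 2.65, with 1 library left in each of these groups. Ccl12, Ccl25, Ccl27a and Ccl27b were at most 12.4 TPM in any library and were not called in these 3 comparisons.

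On the receptor side, 5 CC chemokine receptors and 1 atypical receptor were tested. Ccr2, which binds Ccl2 and Ccl7, fell by 1.39 with IL-4 in WT and by 1.56 in KO (log2, limma adjusted p = 0.00459 and 0.00244), opposite to its ligands, and was higher in KO stiff than in KO soft+IL-4 by 1.33 (0.0113). It was at 76.3 and 84.0 TPM in WT soft, 28.7 and 31.2 TPM in WT soft+IL-4, with 58.3 and 31.6 TPM in WT stiff, and in KO at 78.2 and 90.1, 28.2 and 27.4, and 70.7 and 72.0 TPM in soft, soft+IL-4 and stiff. Ccr7, the lymph node homing receptor, rose by 1.50 with IL-4 and by 1.99 in the stiff matrix in WT (limma adjusted p = 0.0238 and 0.0067). Ccrl2, an atypical receptor that binds chemerin without signalling, fell by 1.57 with IL-4 in WT and by 1.44 in KO (limma adjusted p = 0.00313 and 0.00479). When the 3 libraries whose Camkk2 goes against the label were left out, none of these 3 receptors was called in these comparisons, with Ccr2 at -1.32 and -1.66 with IL-4 in WT and KO (limma adjusted p = 0.156 and 0.0866).

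Genes of the IL-4 and STAT6 pathway and NF-kB and interferon regulators were counted in lists chosen by hand. Of 20 genes of the IL-4 and STAT6 pathway, 8 rose and 1 fell with IL-4 in WT, 6 rose and 1 fell in WT stiff, and 7 rose and 1 fell with IL-4 in KO. Of all genes tested, 1.59%, 1.73% and 1.56% rose in these comparisons and 2.17%, 2.23% and 2.09% fell. The largest changes were those of Cish and Socs1, feedback inhibitors induced by STAT factors (4.11 and 4.00 with IL-4 in WT, 4.59 and 3.97 in WT stiff, log2). In KO stiff against KO soft 1 gene rose, Irf4 (1.15, limma with Benjamini-Hochberg adjusted p = 0.016), a transcription factor of IL-4-stimulated macrophages. In KO stiff against WT stiff 5 were lower, led by Cish (-2.21) and Socs1 (-1.98), and 1 was higher. Of all genes tested, 0.616% were lower and 1.37% higher in this comparison. Without the 3 libraries whose Camkk2 goes against the label, 1 library is left in WT soft, KO soft and KO stiff. Fewer genes of the list were then called in each of these comparisons, and this loss was not compared with that over all genes. Irf4 was at 1.21 in KO stiff against KO soft and was not called, and Socs1 was at -2.13 in KO stiff against WT stiff. The part of these genes in the ligand results was not tested. Of 28 NF-kB and interferon regulators, 0 rose and 3 fell with IL-4 in WT, 0 rose and 5 fell in WT stiff, and 0 rose and 2 fell with IL-4 in KO. In KO stiff against WT stiff 4 were higher and 0 lower, where 1.37% of all genes were higher, led by Irf7, the interferon response factor (2.62), and Nfkbiz, an NF-kB cofactor (1.82). When the 3 libraries whose Camkk2 goes against the label were left out, fewer of these regulators fell with IL-4 and in stiff in WT. The number was unchanged with IL-4 in KO, and the 4 higher in KO stiff than in WT stiff were not called.

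Dendritic cells also make Ccl17 and Ccl22, so their markers were followed beside the ligands. Of 10 dendritic cell markers, 7 were tested, and Clec9a and Xcr1 were below 1 TPM in every library. Itgax and Ccr7 were called higher with IL-4 in WT, Fscn1 and Ccr7 in WT stiff, and Itgax and Fscn1 with IL-4 in KO. Of all genes tested, 1.59%, 1.73% and 1.56% were called higher in these comparisons. The log2 difference was positive for 6, 4 and 5 of the 7 markers. These marker calls did not hold without the 3 libraries whose Camkk2 goes against the label, which leaves 1 library in each soft group. The summed level of the list was 139.5 to 155 TPM in the soft libraries, 645.2 to 683.6 TPM in the soft+IL-4 libraries, 205.1 and 650.1 TPM in WT stiff and 271.2 and 277.1 TPM in KO stiff. Of the WT stiff libraries, WT stiff 1 had the lower level of the list and also of Ccl22 and Ccl24, while its Ccl17 was as high as in WT stiff 2. The part of these markers in the ligand results was not tested. Macrophage markers summed to 51480 to 57980 TPM in the soft libraries, 23570 to 25560 TPM in the soft+IL-4 libraries, 23620 and 24710 TPM in WT stiff and 45980 and 48590 TPM in KO stiff. Lyz2 made up 80.8% to 89.1% of this sum, and without it the sum was 5627 to 6437 TPM in soft, 4109 to 4550 TPM in soft+IL-4, 4543 and 4206 TPM in WT stiff and 5434 and 5918 TPM in KO stiff. Of the 8 markers, 5 were called lower with IL-4 in WT and 3 in WT stiff, Lyz2, Fcgr1 and Cd14 among them in both. Of all genes tested, 2.17% and 2.23% were called lower in these comparisons. The log2 difference was positive for 1 of the 8 markers with IL-4 in WT and for 0 in WT stiff. Fewer of the 8 were called lower in these comparisons without the 3 libraries whose Camkk2 goes against the label. Cd68 was at 1902 TPM on average in WT soft and 1926 TPM in WT soft+IL-4. In RNA of whole samples, fewer cells of a type and less RNA per cell cannot be told apart. The summed neutrophil markers were at 97.2 TPM in WT stiff 1 and 38.0 to 63.3 TPM in the other 11 libraries. Those of eosinophils were 4.81 to 9.05 TPM, of B cells 0.657 to 3.38 TPM, of mast cells or basophils 0.509 to 2.88 TPM, of T or NK cells 0 to 1.03 TPM and of fibroblasts 0.301 to 1.55 TPM.

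For each ligand, the tested genes with the most similar pattern were found by the root mean square difference of log2 values, after removal of each gene's mean, over the 12 libraries. This is a description with no test, and the libraries share their groups. The nearest gene to Ccl17 was Socs1 (0.338, where the SD of Ccl17 itself was 1.98), followed by Tmem26 and Mgl2. Apol7c was nearest to Ccl22 (0.268 against an SD of 1.55), followed by Aldh1a2 and Hebp2, and Ocstamp was nearest to Ccl24 (0.419 against an SD of 1.73). Gfra2 was nearest to Ccl2 (0.24 against 0.814) and Tarm1 to Ccl7 (0.313 against 1.32). Nmi, Lgals3bp and Bst2 were nearest to Ccl5 (0.147 to 0.162 against 0.418), Prdx1 to Ccl4 (0.176 against 0.727) and Slco4a1 to Ccl3 (0.275 against 0.905). For Ccl6 and Ccl9, whose own SD was 0.248 and 0.276, the nearest were Slc38a9 (0.063) and Spcs3 (0.0477). Among the 3 nearest genes of each ligand, 1 was another of the 10, namely Ccl22 for Ccl24 (0.515).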

How the data were processed

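RNA of BMDM was poly-A selected and sequenced as strand-specific libraries. The authors deposited TPM values for 14098 genes in 12 libraries. The submitters' processing notes name Trim Galore 0.6.7, Salmon 1.4.0 and mm10, whereas the methods of the study describe snakePipes with STAR, featureCounts and DESeq, so how the deposited TPM values were made is not settled. TPM keeps no depth, so no counting error is given, and a value of 0 is reported only as listed at 0. Of the columns, 0 were left unused.

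Groups were taken from the sample labels. The 11194 genes that reached 1 TPM in 2 or more libraries, all 10 ligands included, were tested with limma 3.58.1 (R 4.3.3) on log2(TPM + 1) (1 mean per group, no covariates, eBayes with trend), with Benjamini-Hochberg adjustment over all genes tested within each of 14 comparisons. A gene was called where the adjusted p was under 0.05 and the log2 fold change was 1 or more in either direction. The code was tested on simulated data. Alternatives were a pseudocount of 0.1, no filter, median-of-ratios scaling, only the groups compared, the replicate number as a block, a log2 fold change of 2 or more, leaving out each library, and leaving out the 3 libraries whose Camkk2 goes against the label.

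The text names all 10 ligands, Camkk2, the called genes of the ligand and receptor lists, the 2 largest changes of each pathway list and the 3 genes most like a ligand, with Ccl12, Ccl25, Ccl27a, Ccl27b, Irf4 in KO stiff and the cell markers added after their values were seen. The ligands and lists were chosen with earlier results of these data known. Coordinates come from GENCODE vM21 (GRCm38) and upstream sequences from RefSeq (GRCm38.p6).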

Additional observations from a re-analysis of the deposited data

Results flagged for a closer look

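For 4 ligands, the libraries labelled KO and WT, or stiff and soft+IL-4, were separated in opposite directions in 2 settings, and the difference itself was then tested with limma and did not pass the Benjamini-Hochberg adjustment. Ccl2 and Ccl7 were higher in every KO than in every WT library with IL-4 and lower in every KO than in every WT library in the stiff matrix, a pattern held by 6.41% of all genes tested. They were also higher in every WT stiff than in every WT soft+IL-4 library and lower in every KO stiff than in every KO soft+IL-4 library, a pattern held by 6.53% of all genes. The difference was -1.79 on the log2 scale for Ccl2 and -2.11 for Ccl7 (limma adjusted p = 0.0616 and 0.0846). The second pattern was also that of Ccl17, with a difference of -1.74 (limma adjusted p = 0.391).

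Ccl4 was higher in every KO than in every WT library with IL-4 and lower in every KO than in every WT library in the soft matrix, a pattern held by 4.81% of all genes. The difference was 0.56 on the log2 scale (limma adjusted p = 1).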

How the results depend on the processing

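Of the 31 called changes of a ligand, recomputed in 381 combinations with an alternative, 323 kept their direction and their side of the threshold, 58 kept the direction but were no longer called, and 0 reversed. With only the groups compared in the model, the number of ligands called went from 5 to 0 in WT stiff against WT soft. It went from 3 to 5 in KO stiff against KO soft+IL-4 and from 3 to 0 in KO stiff against WT stiff. All 3 fits had fewer libraries behind the spread, and the counts went both ways. Both comparisons that fell to 0 include WT stiff. Over the ligands, its libraries differed by a root mean square of 1.42 (log2), against 0.15 to 0.549 in the other groups. Whether this changed the number of ligands called was not tested. Without the 3 libraries whose Camkk2 goes against the label it was 1 in KO stiff against KO soft+IL-4 and 1 in KO stiff against WT stiff, and when a log2 change of 2 was required it was 0 in both. With 1 library left out, which assumes that the lone library of its group varies like the other groups, the count was 4 to 4 for IL-4 in WT, 3 to 8 for stiff in WT, 0 to 4 for stiff against soft+IL-4 in WT, 5 to 5 for IL-4 in KO, 0 to 1 for KO stiff against KO soft+IL-4, 0 to 5 for KO stiff against WT stiff, 4 to 7 for stiff over both genotypes, 0 to 5 for the interaction with stiffness and 0 to 4 for the interaction with stiff against soft+IL-4. The count of 8, those of 5 and 7 in stiff comparisons and those of 4 in WT stiff against WT soft+IL-4 and in the interaction with stiff against soft+IL-4 came without WT stiff 2. Ccl24, not called in these comparisons, changed sign without WT stiff 1 in WT stiff against WT soft+IL-4 (-2.05 to 0.23 over the libraries left out, from -0.91), and without WT stiff 2 in KO stiff against WT stiff (-1.72 to 0.55, from -0.59) and in the interaction with stiffness (-1.67 to 0.60, from -0.53), and the cause was not tested. The labels do not say what same-numbered libraries share. Over 15 pairs of groups their deviations correlated at -0.05 to 0.31, with 3 above 0.1. These 3 were the pairs among WT soft, KO soft and KO stiff, the groups that hold the libraries whose Camkk2 goes against the label. Genes at 0 were 10.8% to 13.4% of the table in the libraries numbered 1 and 5.90% to 7.54% in those numbered 2. These ranges did not overlap, and the main model held no term for the library number. With the replicate block, 5 ligands were called with IL-4 and 6 in stiff in WT, 5 with IL-4 in KO, 4 in KO stiff against KO soft+IL-4 and 4 against WT stiff, and 1 in the interaction with stiff against soft+IL-4. The calls gained under the block were Ccl3 in WT stiff against WT soft, Ccl24 in KO stiff against KO soft+IL-4, Ccl17 in KO stiff against WT stiff and Ccl2 in that interaction (limma adjusted p = 0.0406, 0.0465, 0.0257 and 0.0464), and 0 were lost. Median-of-ratios scaling moved the median of all genes by at most 0.051 on the log2 scale.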
